A study of Mus musculus with 6 samples.

Results

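The EGR, NR4A and KLF transcription factors encoded by *Egr1*, *Egr2*, *Egr3*, *Nr4a1*, *Nr4a2*, *Nr4a3*, *Klf2*, *Klf4*, *Klf6* and *Klf10* were examined in mouse hearts at embryonic day (E) 18.5. They are 10 of the 13809 genes in the count table, and all 10 passed the filter on low counts that left 13804 genes to be tested. The genes were chosen by their known rapid induction and on measured values of the same comparison of KO with WT, so their fold changes are given as a description and without p-values. Total RNA from 3 WT and 3 homozygous *Pkm1*-KO hearts was depleted of ribosomal RNA and sequenced. The KO allele carries a CRISPR/Cas9 deletion in the *Pkm1*-specific exon of *Pkm* that leads to a premature stop codon, was made in BDF1 hybrid zygotes and is present in every cell of the embryo. The study describes the tissue as ventricle and the sample labels as heart, both groups were collected at E18.5, neither received a treatment, and nothing in the labels says whether a library came from 1 embryo or from a pool. The study describes the 3 libraries of a genotype as biological replicates, and the SDs below measure the spread between them. The standard errors of log2 fold changes come from the edgeR fit and are not the spread of 1 gene's libraries.

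EGR proteins bind GC-rich DNA through zinc fingers of the C2H2 type and couple growth factor and stretch signals to gene expression. NR4A proteins are orphan nuclear receptors, with the zinc-binding DNA-binding domain of that family, and act without a known physiological ligand. KLF proteins bind GC-rich and CACCC-type elements, and KLF2 and KLF4 are known for their response to blood flow in endothelium. Many of these genes are immediate early genes, which are transcribed within minutes of a signal from factors already in the cell, such as SRF, CREB and MEF2.

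The WT libraries held 15597756 to 19875546 counts and the KO libraries 15567624 to 18577404, and 3 counts corresponded to 0.153 to 0.197 CPM (counts scaled by TMM to library size). The 10 genes together took 10528 to 12323 counts in the WT libraries and 3589 to 4447 in KO libraries. The columns carry no replicate numbers, so libraries are called a, b and c in column order. *Pkm* itself was at 1294, 1296 and 1366 CPM in WT hearts and at 546.9, 530.3 and 548.5 CPM in KO, and gene counts do not separate its *Pkm1* and *Pkm2* transcripts. WT c was less like the other WT libraries than they were like each other, with a chi-square per degree of freedom over genes of 3.76 and 3.24 against 1.56. The groups also differed in sex-linked RNA: *Xist* averaged 5.26 CPM in WT hearts and 2285 CPM in KO, and the Y-linked *Uty*, *Kdm5d*, *Ddx3y* and *Eif2s3y* were at 0 counts in all KO libraries. Sex and genotype therefore cannot be told apart in any comparison below. Over all genes tested, 15.7% were called lower and 14.6% higher in KO (adjusted p under 0.05, edgeR, quasi-likelihood, Benjamini-Hochberg), and the median log2 fold change was 0.00172.

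The DNA in front of these genes is shown first. It was searched for sites through which immediate early genes are classically induced and for other common promoter elements. RefSeq promoter windows of 300 bases, from 250 bases before the annotated start to 50 bases from it on (GRCm38.p6), were found for 7 of the 10 genes; none was used for *Egr1*, *Egr3* or *Klf10*. In the NR4A genes the capitals mark the CRE core TGACG, read on either strand, which is the conserved part of the CREB site TGACGTCA. The windows lie at chr15:101266596-101266895 on the plus strand for *Nr4a1*, at chr2:57123954-57124253 on the minus strand for *Nr4a2* and at chr4:48045055-48045354 on the plus strand for *Nr4a3*.
Nr4a1: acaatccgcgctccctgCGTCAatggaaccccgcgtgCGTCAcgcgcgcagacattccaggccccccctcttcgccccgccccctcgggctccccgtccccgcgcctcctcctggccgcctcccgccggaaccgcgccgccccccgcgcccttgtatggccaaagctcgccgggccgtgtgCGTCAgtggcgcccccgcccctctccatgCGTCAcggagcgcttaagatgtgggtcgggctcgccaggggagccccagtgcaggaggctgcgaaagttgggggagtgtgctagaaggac
Nr4a2: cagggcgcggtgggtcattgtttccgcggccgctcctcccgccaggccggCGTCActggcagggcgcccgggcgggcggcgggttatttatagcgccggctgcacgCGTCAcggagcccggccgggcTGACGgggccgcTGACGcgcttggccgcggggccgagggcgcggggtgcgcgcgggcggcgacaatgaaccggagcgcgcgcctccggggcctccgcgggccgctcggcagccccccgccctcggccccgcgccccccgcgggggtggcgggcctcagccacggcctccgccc
Nr4a3: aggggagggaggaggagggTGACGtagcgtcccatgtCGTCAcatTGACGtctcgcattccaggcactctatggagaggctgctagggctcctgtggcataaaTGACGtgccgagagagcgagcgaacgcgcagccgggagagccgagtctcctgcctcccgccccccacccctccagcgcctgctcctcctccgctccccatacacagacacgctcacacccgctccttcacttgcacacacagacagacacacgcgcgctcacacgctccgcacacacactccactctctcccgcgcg
Each of the 3 NR4A windows held 4 CRE cores. Of all 32851 RefSeq windows, 20.8% held at least 1 and 0.231% held 4 or more. The full CREB site TGACGTCA was in none of the member windows and in 1.79% of all windows. The cores of *Nr4a3* lay between positions -231 and -143 from the start, and those of *Nr4a1* in 2 pairs, the nearer of which ended at position -36.

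The windows of *Klf2*, *Klf6* and *Egr2* are shown for the other sites they hold. Capitals mark a MEF2 site in *Klf2* (chr8:72318812-72319111, plus strand), which binds the MEF2 factors of muscle and endothelium, CCAAT boxes on either strand in *Klf6* (chr13:5861239-5861538, plus strand), the element bound by the NFY complex, and a CArG box in *Egr2* (chr10:67537316-67537615, plus strand, the second of its 5 windows), the element bound by SRF.
Klf2: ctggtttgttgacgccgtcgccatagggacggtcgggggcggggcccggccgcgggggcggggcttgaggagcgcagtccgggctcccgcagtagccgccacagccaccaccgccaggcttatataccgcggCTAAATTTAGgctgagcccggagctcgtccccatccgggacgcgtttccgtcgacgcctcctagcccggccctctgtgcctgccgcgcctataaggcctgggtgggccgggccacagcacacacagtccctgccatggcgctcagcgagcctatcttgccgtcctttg
Klf6: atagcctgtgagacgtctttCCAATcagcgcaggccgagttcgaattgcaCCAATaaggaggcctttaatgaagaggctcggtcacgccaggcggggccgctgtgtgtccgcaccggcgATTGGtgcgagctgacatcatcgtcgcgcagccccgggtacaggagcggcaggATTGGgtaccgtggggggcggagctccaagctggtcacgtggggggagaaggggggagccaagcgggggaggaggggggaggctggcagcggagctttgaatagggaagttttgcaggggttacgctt
Egr2: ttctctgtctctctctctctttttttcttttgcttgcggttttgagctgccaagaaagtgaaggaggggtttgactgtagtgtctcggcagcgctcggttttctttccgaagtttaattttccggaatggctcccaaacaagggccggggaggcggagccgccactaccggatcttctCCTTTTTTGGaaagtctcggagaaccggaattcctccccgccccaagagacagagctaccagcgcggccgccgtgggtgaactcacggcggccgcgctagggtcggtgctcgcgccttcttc
A MEF2 site was in 0.557% and a CArG box in 1.63% of all windows. A CArG box was found in 4 of the 5 *Egr2* windows. Windows 3, 4 and 5 overlap and hold the same box, and the box shown in window 2 is a separate site. *Klf6* held 4 CCAAT boxes, where 37.4% of all windows held at least 1 and 1.06% held 4 or more. An EGR site, GCGNGGGCG, was present in *Nr4a1*, *Nr4a2*, *Klf2* and, as 2 matches, in *Klf4*, and in 5.55% of all windows; this site can share bases with the GC box GGGCGG, which was in a window of all 7 genes and in 35.7% of all windows. The CACCC box CACCC was found for 4 of the 7 genes and in 57.5% of all windows, and TATAAA for *Nr4a2* alone among the 7 and in 13.6% of all windows. The NR4A monomer site AAAGGTCA and the ETS site CCGGAAGT were in no member window. These are matches of letters on both strands and say nothing of binding in these hearts.

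**Figure D1:**
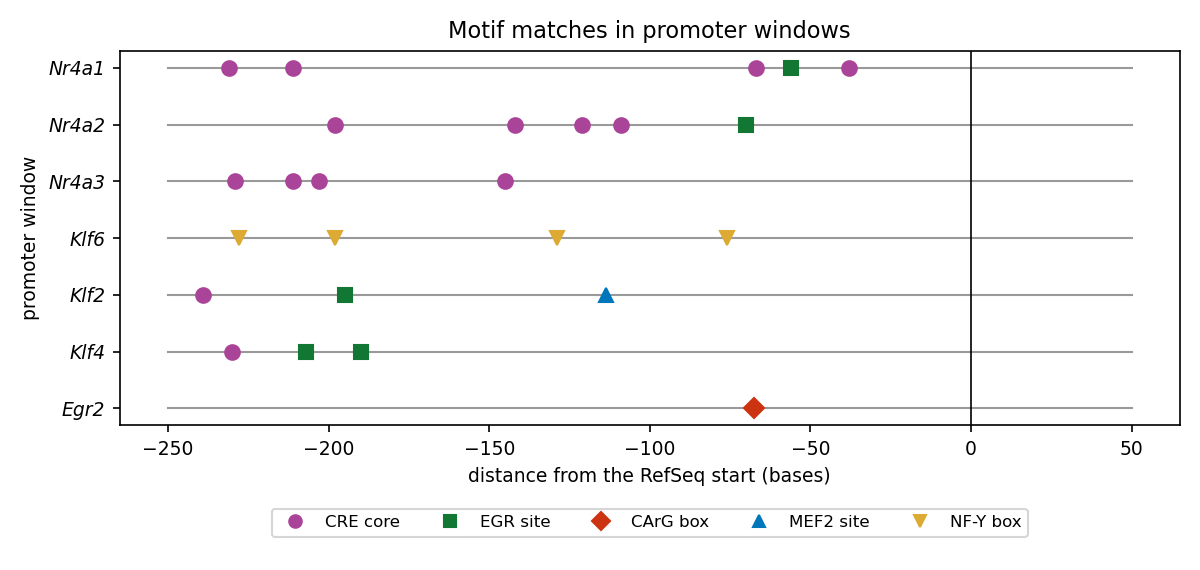
Motif matches in 7 promoter windows, with the distance from the RefSeq start in bases on the x axis and 1 gene per row; each symbol is the middle of a match and the NF-Y box is the CCAAT box. The 3 NR4A rows each carry 4 CRE cores, and *Klf6* carries 4 NF-Y boxes.

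*Egr1*, the EGR gene with the highest level, is a growth factor and stretch response gene. It was at 109.7, 105.9 and 123.5 CPM in the WT libraries and at 19.34, 19.07 and 18.41 CPM in the KO libraries. All KO libraries lay far below all WT libraries, the lowest WT library being 5.48 times the highest KO library. The means were 113.0 ± 9.28 and 18.94 ± 0.479 CPM (SD, n = 3 each), and the log2 fold change was -2.57 (standard error 0.0618).

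*Egr2*, known for its part in Schwann cell myelination and hindbrain patterning, was near the low end of the tested genes. Its levels were 3.07, 3.52 and 4.14 CPM in WT hearts and 1.01, 0.758 and 0.590 CPM in KO, which were 53 to 69 and 11 to 19 counts. The groups did not overlap, and the coefficient of variation of the KO libraries, 26.7%, equalled that of counting error alone. The log2 fold change was -2.17 (standard error 0.252).

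*Egr3*, which acts in muscle spindle and lymphocyte development, was similarly low, at 3.77, 3.78 and 3.55 CPM in WT hearts and 1.70, 1.71 and 1.07 CPM in KO. The lowest KO library was KO c, the same library that was lowest for *Egr2*. Its log2 fold change was -1.32 (standard error 0.214). Of the summed EGR level in CPM per kilobase of exon, *Egr1* gave 93.0% in WT and 88.2% in KO, and *Egr3* gave 3.11% ± 0.342 and 7.02% ± 1.42 (SD, n = 3 each).

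*Nr4a1*, encoding the receptor NUR77, had the highest NR4A level. It was at 165.6, 161.3 and 178.4 CPM in WT hearts and at 29.83, 30.56 and 30.59 CPM in KO. The KO libraries lay within 1 CPM of each other, with a coefficient of variation of 1.42% where counting error alone gives 4.31%. Even the lowest WT library exceeded them by 5.27 times. The log2 fold change was -2.47 (standard error 0.0487).

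*Nr4a3*, encoding NOR1, had the largest fall of the 10 genes and ranked 10 from the lowest of 13804 fold changes. Its levels were 35.79, 34.24 and 36.14 CPM in WT hearts and 3.66, 3.54 and 3.65 CPM in KO, 10.2% of the WT mean. The coefficient of variation of its KO libraries, 1.86%, was below the 12.5% of counting error alone. A coefficient of variation from 3 libraries is imprecise, here and for the other genes, so nothing is read from such gaps. The log2 fold change was -3.29 (standard error 0.0928).

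*Nr4a2*, encoding NURR1, which is best known from dopamine neurons, fell less. It was at 6.43, 5.31 and 6.96 CPM in WT hearts and 3.39, 3.28 and 2.85 CPM in KO. The groups did not overlap, though the lowest WT library was only 1.57 times the highest KO library, and the log2 fold change was -0.96 (standard error 0.157). As a share of the summed NR4A level in CPM per kilobase of exon, *Nr4a3* went from 10.7% ± 0.324 in WT to 6.02% ± 0.157 in KO and *Nr4a2* from 2.76% ± 0.257 to 7.80% ± 0.728 (SD, n = 3 each). *Nr4a1* gave 86.6% and 86.2% of that sum. Per kilobase *Nr4a3* was thus above *Nr4a2* in WT and below it in KO, while in CPM, which is not scaled to length, its values were the higher in both.

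**Figure D2:**
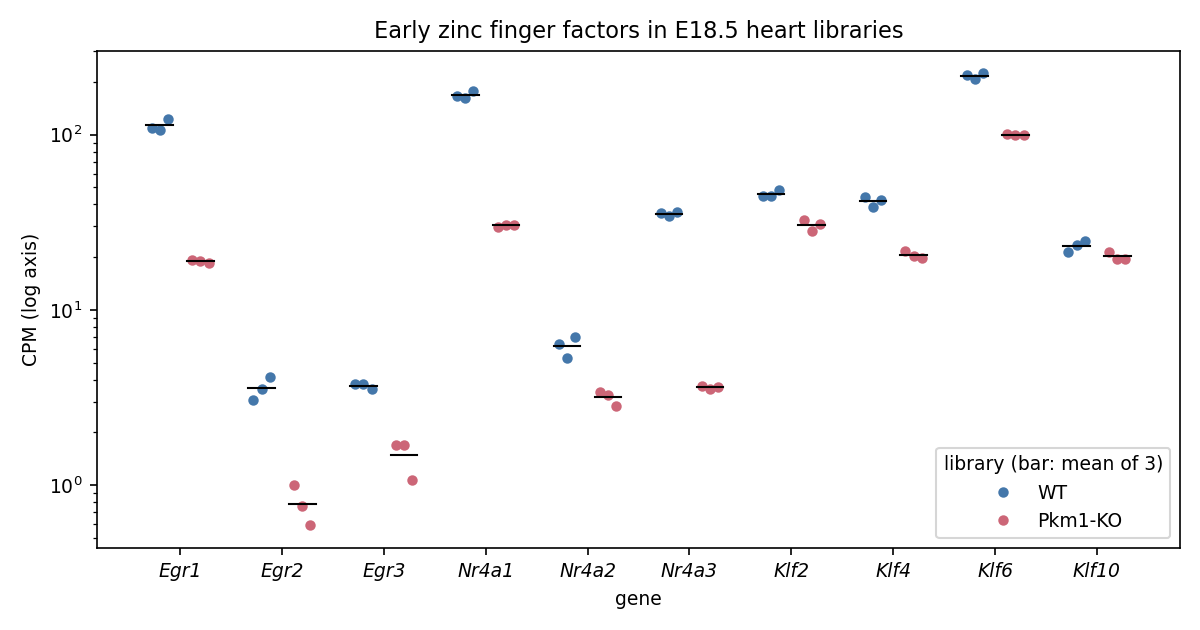
CPM on a log axis for the 10 genes in each of 3 WT (blue) and 3 *Pkm1*-KO (red) libraries, with bars at the group means. The groups are apart for 9 genes and overlap for *Klf10*.

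*Klf6*, a broadly expressed factor of injury and growth responses, had the highest CPM of the 10 genes. It was at 218.1, 208.0 and 223.8 CPM in WT hearts and at 101.0, 99.78 and 99.67 CPM in KO. The KO libraries differed by less than 2 CPM, with a coefficient of variation of 0.764% where counting error alone gives 2.37%. Every one was below every WT library. The log2 fold change was -1.11 (standard error 0.0374).

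*Klf4*, a factor of endothelium, smooth muscle and pluripotent cells, was at 44.02, 38.68 and 42.11 CPM in WT hearts and 21.67, 20.27 and 19.70 CPM in KO. Its KO mean was 49.4% of the WT mean, with no overlap and a log2 fold change of -1.01 (standard error 0.0677). *Klf2*, the flow-responsive factor of endothelium, was at 44.60, 44.70 and 48.55 CPM in WT hearts and 32.64, 28.04 and 30.86 CPM in KO. The 2 groups were closer here, the lowest WT library being 1.37 times the highest KO library, and the log2 fold change was -0.58 (standard error 0.0628).

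*Klf10*, the TGF-beta inducible factor also called TIEG1, stood apart from the other 9 genes. Its levels were 21.26, 23.47 and 24.57 CPM in WT hearts and 21.35, 19.64 and 19.54 CPM in KO. WT a and KO a were almost equal, so the groups overlapped, and the log2 fold change was -0.19 (standard error 0.0758). It was not called in the main test, and was called lower without WT a (log2 fold change -0.25) and by edgeR's likelihood ratio and exact tests.

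Across the 10 genes, 9 were called lower in KO beside 15.7% of all genes, 9 had every KO library below every WT library beside 21.4%, and 7 had a log2 fold change of -1 or less beside 1.27%. Because the genes were chosen with this comparison known, nothing is read from these counts. The median log2 fold change was -1.21, and 5 of the genes (*Nr4a3*, *Egr1*, *Nr4a1*, *Egr2* and *Egr3*) were among the 100 lowest. The summed levels of the families differed in size of change, a comparison of values without a test. The summed EGR level in KO was 17.6% of WT, the summed NR4A level 17.7% and the sum of the 4 KLF genes 52.4%. In CPM these sums went from 120.3 ± 9.58 to 21.22 ± 1.02, from 210.1 ± 10.5 to 37.12 ± 0.254 and from 327.3 ± 12.1 to 171.4 ± 4.71 (SD, n = 3 each). Each sum leans on 1 gene, with *Egr1* at 113.0, *Nr4a1* at 168.4 and *Klf6* at 216.6 CPM in WT. Single genes of different families had similar changes: the KO mean was 50.9% of WT for *Nr4a2*, 49.4% for *Klf4* and 46.2% for *Klf6*.

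Levels of different genes were compared as CPM per kilobase of annotated exon. In WT the order was *Klf6* (49.3), *Nr4a1* (48.0), *Egr1* (25.2), *Klf2* (24.9), *Klf4* (13.7), *Nr4a3* (5.91), *Klf10* (5.53), *Nr4a2* (1.54), *Egr2* (1.05) and *Egr3* (0.839). The ranges of *Klf6* and *Nr4a1*, of *Egr1* and *Klf2*, and of *Nr4a3* and *Klf10* over the libraries overlapped. Both genes of a pair were measured in the same libraries and were not compared library by library, so overlap does not show equal levels. In KO the order was *Klf6* (22.8), *Klf2* (16.5), *Nr4a1* (8.64), *Klf4* (6.74), *Klf10* (4.83), *Egr1* (4.22), *Nr4a2* (0.782), *Nr4a3* (0.604), *Egr3* (0.339) and *Egr2* (0.231), and only *Egr3* and *Egr2* overlapped. *Egr1* thus moved from the third place to the sixth, below *Klf10*. *Nr4a1* was above 94.8% of tested genes in WT and 65.5% in KO, *Nr4a3* above 54.0% and 9.21%, and *Klf6* above 94.9% and 88.4%.

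**Figure D3:**
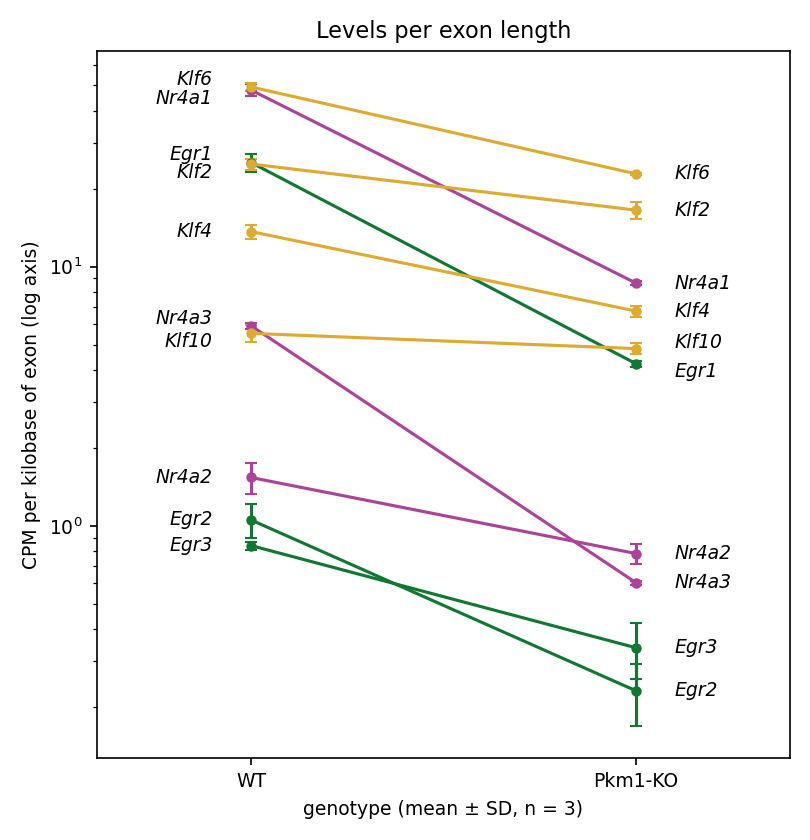
Level per kilobase of exon (CPM per kilobase, log axis) of the 10 genes in WT and *Pkm1*-KO hearts, mean ± SD of 3 libraries, coloured by family. The lines of *Egr1*, *Nr4a1* and *Nr4a3* cross those of KLF genes, which slope less.

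Within a genotype most pairs of these genes had positively correlated deviations, and no other gene pairs were set beside them. WT c held the highest WT level of 8 of the 10 genes and WT b the lowest of 6, and KO a held the highest KO level of 8 and KO c the lowest of 7. Correlations of log2 CPM deviations from the genotype means over the 6 libraries had a median of 0.52 over 45 pairs and ran from -0.33 (*Egr3* with *Nr4a3*) to 0.89 (*Nr4a2* with *Klf6*), with 41 pairs above 0. These libraries share their depth and scaling across all 10 genes. Genes outside the group with the profile most like the mean of its standardized levels were *Cpd* (r = 0.9984), *Rit1*, *Trp53inp2*, *Scarb2* and *H1f0*, with log2 fold changes of -0.14, -0.20, -0.28, -0.65 and -0.51. Over 6 libraries that fall into 2 groups this likeness mostly follows the gap between the groups, and 737 of 13418 genes had r over 0.95.

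The other genes of the families were described from a list. Of 14 listed genes 11 were tested, all KLF genes, and 4 were lower and 1 higher in KO (adjusted p under 0.05), with a median log2 fold change of -0.12; *Egr4*, *Klf1* and *Klf17* were not in the table analysed. *Klf9*, a factor induced by glucocorticoid and thyroid hormone, fell from 51.31 ± 4.36 to 16.18 ± 0.311 CPM (SD, n = 3 each), so that its log2 fold change was -1.66 (standard error 0.0701, edgeR adjusted p = 1.81e-16). This fall was larger than that of *Klf2*, *Klf4*, *Klf6* or *Klf10*, a comparison of values without a test. *Klf13* fell from 129.2 ± 3.66 to 106.9 ± 2.62 CPM (SD, n = 3 each; log2 fold change -0.27, edgeR adjusted p = 5.59e-06). *Klf5* (-0.74), *Klf7* (-0.25) and *Klf16* (0.35) were called in the full set, but *Klf5* was lost without WT a, KO a or KO b, *Klf7* without WT c, KO a or KO c, and *Klf16* without WT a, KO a or KO c, with adjusted p up to 0.138, 0.094 and 0.202 in those fits. With all libraries kept, DESeq2 did not call *Klf16* either (DESeq2 adjusted p = 0.285). *Klf15*, a metabolic regulator of heart muscle, was at 29.34 ± 2.23 CPM in WT hearts and 31.21 ± 1.35 CPM in KO (SD, n = 3 each; edgeR adjusted p = 0.339).

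**Figure D4:**
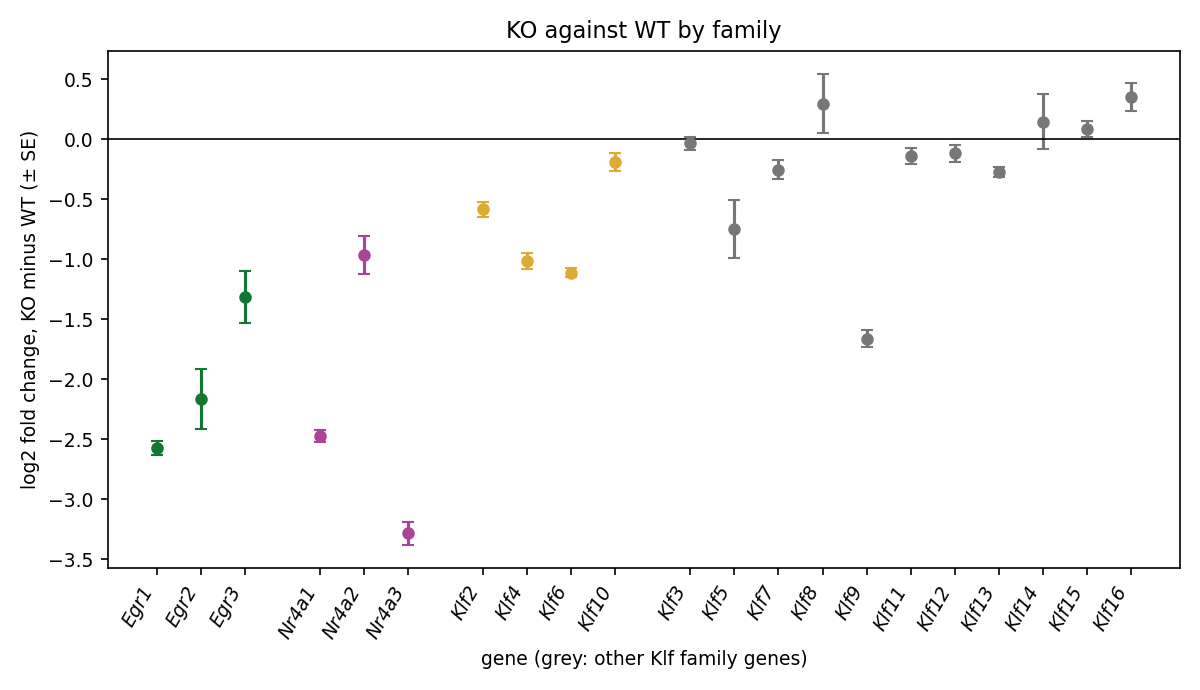
Log2 fold change of KO over WT, with standard errors, for the EGR (green), NR4A (purple) and KLF (yellow) members and for 11 other KLF genes (grey). *Klf9* at -1.66 lies below all 4 KLF members.

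Partners and upstream factors of these genes were described from lists, which were chosen with earlier results of these data known. The 8 cofactors include the EGR corepressors NAB1 and NAB2 and the RXR receptors, dimer partners of NUR77 and NURR1. Of these 8, 1 was lower and 0 higher, with a median log2 fold change of 0.02. The 1 was *Nab1* (-0.14, edgeR adjusted p = 0.0343), which lost its call without WT a, WT b, KO a or KO c (adjusted p up to 0.154). *Nab2*, a gene that EGR1 itself induces in other systems, was at 22.30 ± 1.29 CPM in WT hearts and 22.62 ± 0.494 CPM in KO (SD, n = 3 each). *Rxra* was at 78.10 and 81.85 CPM.

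Of 7 genes for SRF and its partners, 1 was lower and 0 higher, with a median of -0.07. *Srf* was at 159.7 ± 7.84 CPM in WT hearts and 165.3 ± 5.89 CPM in KO (SD, n = 3 each; edgeR adjusted p = 0.350), and passed the test only without WT c (adjusted p = 0.0363). *Myocd*, encoding the heart and smooth muscle SRF coactivator myocardin, was 0.09 lower on the log2 scale (edgeR adjusted p = 0.0264), a call lost without WT a, WT b, KO a or KO b (adjusted p up to 0.101).

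The list of CREB, MEF2 and class IIa histone deacetylase genes had 4 lower and 2 higher among 13. *Hdac5*, a deacetylase that represses MEF2 targets, fell from 136.9 ± 4.49 to 88.48 ± 4.30 CPM (SD, n = 3 each; log2 fold change -0.63, edgeR adjusted p = 5.34e-12). *Mef2a* fell from 516.7 to 465.9 CPM (-0.15, edgeR adjusted p = 0.000136), whereas *Creb1* rose from 73.86 to 87.93 CPM (0.25, edgeR adjusted p = 0.000478) and the CREB coactivator gene *Crtc1* from 22.26 to 27.03 CPM (0.28, edgeR adjusted p = 0.00370). *Crem*, encoding the CREB-related modulator, was 0.40 lower on the log2 scale, a call lost without WT a or KO a (adjusted p up to 0.103), and *Mef2d* was 0.13 lower, a call lost without WT b, KO a or KO b (up to 0.142).

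In the MAP kinase cascade, which carries growth factor signals to SRF partners and CREB, 3 of 13 genes were lower and 2 higher, with a median of 0.03. *Map2k1*, encoding the kinase MEK1, rose from 65.65 ± 3.20 to 78.61 ± 1.39 CPM (SD, n = 3 each; 0.26, edgeR adjusted p = 0.000142). *Mapk3* (-0.16), *Map3k3* (-0.13) and the X-linked *Araf* (0.15) were among the other calls. Leaving out 1 library ended the call of *Mapk3* for WT c, KO a or KO b (adjusted p up to 0.100), of *Map3k3* for WT b, WT c, KO a or KO b (up to 0.185) and of *Araf* for all but WT a (up to 0.123).

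Known targets of the 10 factors changed in part. Of 10 EGR target genes 3 were lower and 0 higher, with a median of -0.01. The adhesion molecule gene *Icam1* fell from 17.00 ± 0.987 to 11.47 ± 1.01 CPM (SD, n = 3 each; -0.57, edgeR adjusted p = 2.61e-05). *Tgfb1* (-0.23, edgeR adjusted p = 0.0225) lost its call without WT c, KO a or KO b (adjusted p up to 0.209). The growth factor genes *Pdgfa* and *Pdgfb* were at 33.34 and 45.46 CPM in WT hearts and 35.83 and 48.58 CPM in KO and did not pass the test.

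Of 9 KLF2 and KLF4 target genes 4 were lower and 0 higher, with a median of -0.17. *Edn1*, encoding the vasoconstrictor precursor of endothelin-1, which flow-induced KLF2 lowers in cultured endothelium, fell from 20.95 ± 1.03 to 9.47 ± 0.658 CPM (SD, n = 3 each; -1.15, edgeR adjusted p = 7.81e-11). *S1pr1*, the sphingosine phosphate receptor gene, fell from 179.9 ± 3.28 to 128.6 ± 3.20 CPM (-0.49, edgeR adjusted p = 4.00e-11), and *Adamts5* and *Plat* by 0.41 and 0.26 on the log2 scale. *Nos3*, encoding endothelial nitric oxide synthase, was at 61.37 ± 2.62 CPM in WT hearts and 59.56 ± 3.27 CPM in KO (edgeR adjusted p = 0.596). *Thbd*, encoding thrombomodulin, had a log2 fold change of -0.17 (edgeR adjusted p = 0.0547) and passed the test without WT c (adjusted p = 0.00568).

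Of 8 NR4A target genes of muscle metabolism 6 were tested, 4 were lower and 0 higher, with a median of -0.12. *Eno3*, encoding muscle enolase, fell from 540.0 to 488.6 CPM (-0.14, edgeR adjusted p = 0.000153), and the X-linked phosphorylase kinase gene *Phka1* from 70.47 to 58.09 CPM (-0.28, edgeR adjusted p = 6.14e-05). *Pgam2* (-0.09) and *Lpin1* (-0.17) lost their calls without WT b, WT c, KO a or KO c, and *Pgam2* also without KO b (adjusted p up to 0.142 for *Lpin1* and 0.183 for *Pgam2*). *Slc2a4*, the gene of the insulin-responsive glucose transporter, was at 82.60 ± 0.123 CPM in WT hearts and 81.89 ± 1.77 CPM in KO (SD, n = 3 each; edgeR adjusted p = 0.852).

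Other immediate early genes gave the values nearest to those of the members. Of 31 listed, 29 were tested, 26 were lower and 1 higher, with a median log2 fold change of -0.89. Their summed CPM in KO was 0.369 of that in WT, beside 0.349 for the members. This ratio leans on *Ctgf*, which alone gave 1189 to 1302 of the 3268 to 3513 CPM summed in the WT libraries. *Fos* fell from 49.61 ± 0.789 to 3.09 ± 0.961 CPM, *Atf3* from 81.66 ± 2.76 to 9.43 ± 2.15 CPM and *Ctgf* from 1228 ± 64.1 to 125.4 ± 3.08 CPM (SD, n = 3 each). *Dusp4* was the 1 that rose, from 9.90 to 12.66 CPM (0.36, edgeR adjusted p = 0.00688). Since the list was drawn up with these results known, no test sets it against the members.

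**Figure D5:**
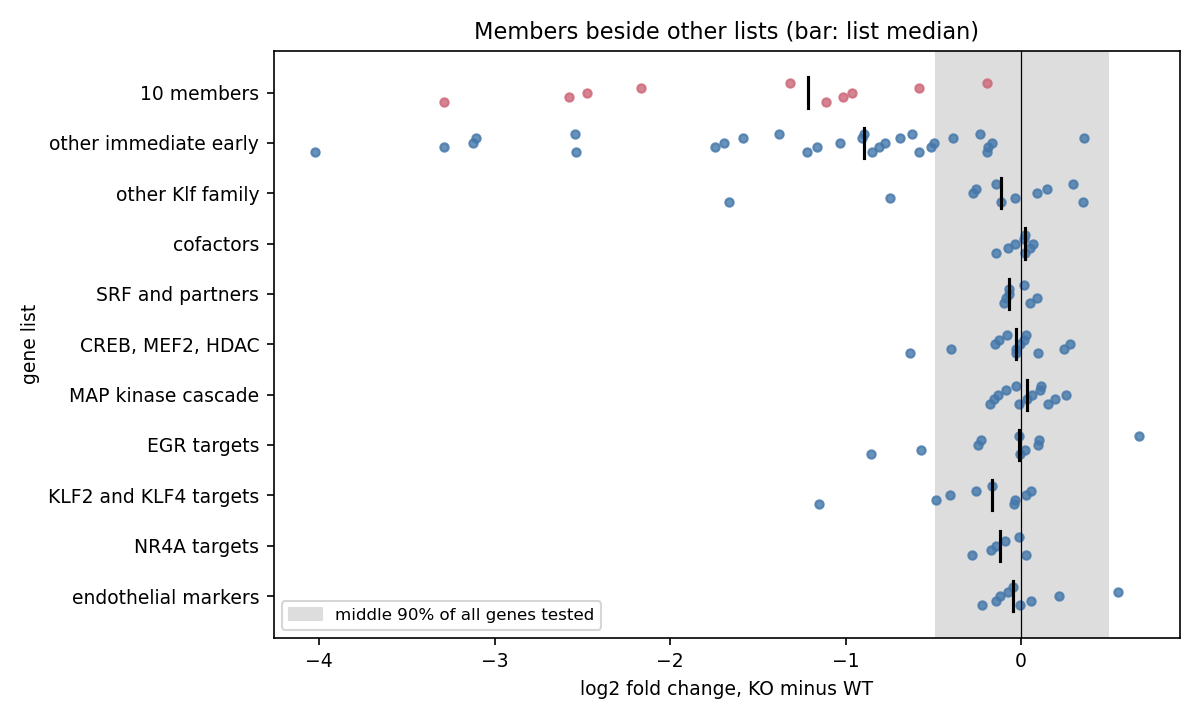
Log2 fold change of KO over WT for the 10 members (red) and for 10 other lists (blue), each point 1 gene and each bar the list's median; the grey band holds the middle 90% of all genes tested, from -0.48 to 0.49. Members and other immediate early genes reach far below the band, while most genes of the other lists lie inside it.

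In whole tissue, fewer cells of a type and less RNA per cell cannot be told apart. Of 9 endothelial markers 3 were lower and 2 higher. Their summed level was 1221 to 1227 CPM in WT hearts and 1184 to 1205 CPM in KO. Log2 fold changes of this list ran from -0.22 (*Cdh5*, encoding VE-cadherin, at 344.5 and 295.3 CPM) to 0.55 (*Egfl7*), with a median of -0.05. Of 8 fibroblast markers 4 were lower and 0 higher, and the sum was 3946 to 3992 and 3677 to 3746 CPM. The 8 smooth muscle and pericyte markers had 3 lower and 1 higher, with sums of 1273 to 1292 and 1217 to 1229 CPM. The 8 cardiomyocyte markers had 4 lower and 2 higher, with sums of 54540 to 57900 and 51290 to 51970 CPM, and all 8 were detected in every library. Of 7 immune markers 1 was lower, with sums of 39.27 to 42.51 and 38.10 to 44.39 CPM. Of 6 tested atrial markers 3 were higher and 0 lower, with sums of 594.8 to 601.1 CPM in WT hearts and 1006 to 1030 CPM in KO. The 3 were *Myl4* (1.10, edgeR adjusted p = 5.29e-19), *Myl7* (0.75) and *Nppa* (0.68). *Nr2f1*, *Nr2f2* and *Stard10* were not called, and 2 of the 6 had a log2 fold change below 0 (lowest -0.23). Of 4 epicardial markers 2 were higher (*Wt1* and *Upk3b*), with sums of 61.39 to 64.65 and 73.23 to 79.49 CPM, and of 2 tested erythroid markers 1, the X-linked *Alas2*, was higher. The KO sums were 0.923 to 0.976 of the WT sums for the first 5 lists. They were 1.70 for the atrial, 1.19 for the epicardial and 1.22 for the erythroid list. The part of the tissue's makeup in the members' values was not tested.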

How the data were processed

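RNA-seq libraries of 3 WT and 3 KO hearts at E18.5 were analysed, with groups taken from the sample labels. The authors deposited raw read counts per gene symbol, 1 column per library, beside their own edgeR comparison (fold changes on a log2 scale, mean expression and p-values), which was not used. Per the submitters' processing notes, reads were trimmed with cutadapt 1.18, aligned with HISAT2 to mm10 and assembled with StringTie; the counting program and its strand setting are not given in the sources used here, so reads shared with paralogs or antisense genes may be split. No annotated gene overlapped a member.

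Counts were filtered with filterByExpr (13804 of 13809 genes kept), scaled by TMM and tested with edgeR 4.0.16 (R 4.3.3), quasi-likelihood, genotype only, Benjamini-Hochberg over all genes, after a test on simulated counts. The standard error of a log2 fold change was its absolute value over the square root of the quasi-likelihood F statistic. CPM per kilobase used the union of GENCODE exons. Of the symbols, 13299 matched the annotation directly and 415 through an older symbol, and 95 did not match. The members and lists were chosen with earlier results of these data known. Named genes are all members, up to 4 called genes per list with the largest change, listed genes whose role is described, and the 5 genes most alike in profile. Alternatives were RLE scaling, TMM without *Rn45s*, limma 3.58.1 voom, the exact and the likelihood ratio test of edgeR, DESeq2 1.42.0, 2 other filters, X and Y genes left out, the 2 most alike WT libraries summed, and each library left out. Within a genotype no pair of libraries was identical, and all differed by more than sampling noise. Protein sequences were not analysed here, and some listed genes are not reported here. Figures used matplotlib 3.10.9.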

Additional observations from a re-analysis of the deposited data

How the results depend on the processing

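All 10 members kept a negative log2 fold change in every one of the 16 alternatives. These refit the same libraries for genes chosen with the comparison known, so they show dependence on processing only. The lowest and highest values were -2.62 and -2.51 for *Egr1*, -2.40 and -1.99 for *Egr2*, -3.31 and -3.27 for *Nr4a3*, -1.14 and -1.09 for *Klf6* and -0.25 and -0.15 for *Klf10*. The count of members called lower was 9 or 10, beside 15.7% of all genes tested in the main fit, and nothing is read from it. DESeq2 called 0 genes in the cofactor list (main 1), 0 of the SRF genes (main 1), 1 MAP kinase gene (main 5) and 2 NR4A targets (main 4). It also did not call *Mef2d*, *Tgfb1* or *Upk3b* (DESeq2 adjusted p = 0.0562, 0.0511 and 0.0668). With WT a and b summed, 0 cofactors and 0 SRF genes were called. Leaving out 1 library at a time, the calls ranged from 2 to 5 for the other family genes, 0 to 1 for the cofactors, 0 to 2 for the SRF genes, 2 to 4 for the MAP kinase genes and 2 to 4 for the NR4A targets, where fewer libraries entered each fit. The other counts stayed within 1.5 times their main values. *Klf9*, *Hdac5*, *Icam1*, *Edn1*, *S1pr1*, *Eno3* and 26 of the 27 called immediate early genes were called in every alternative. No paired analysis was possible because no count column names its replicate. At 11 to 19 counts per KO library, *Egr2* is limited by depth more than the other members.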

Other observations

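Heat shock genes, another group with rapid induction, did not move as one. Of 9 tested, 4 were lower and 1 higher in KO (adjusted p under 0.05, edgeR), with a median log2 fold change of -0.04. The inducible chaperone gene *Hspa1a* fell from 3.33 ± 0.365 to 1.37 ± 0.121 CPM (SD, n = 3 each; -1.27, edgeR adjusted p = 5.93e-05), *Hspa8*, encoding the constitutive chaperone HSC70, fell from 984.5 to 830.4 CPM (-0.25) and *Bag3*, encoding their cochaperone, from 109.0 to 94.61 CPM (-0.20). *Dnajb1*, encoding a further cochaperone, rose from 20.92 ± 1.25 to 29.22 ± 1.55 CPM (SD, n = 3 each; 0.48, edgeR adjusted p = 8.73e-06). *Hspa1b* (-0.66) lost its call without WT a, KO a or KO c, and its reads could be split with those of its near-identical copy *Hspa1a*.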
